A study of Gallus gallus with 51 samples.

Results

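The subject here is the untreated cochlear sensory epithelium of the chicken, read from the control RNA alone in a two-colour array experiment on neomycin damage. Its members were 9 control RNA samples out of 18 RNA samples in all, the other 9 being neomycin-treated. The control channel was Cy3 on the 27 arrays whose title suffix was 5 and Cy5 on the 24 arrays whose suffix was 3, which gave 51 control channels of 102. Cochleae came from White Leghorn chicks 10 to 21 days after hatching and were kept in culture for 24 hr without drug. They were then harvested (0 hr) or cultured for a further 24 or 48 hr. Thermolysin freed the epithelium from the stroma, 4 epithelia made up 1 sample, and the RNA was amplified before labelling. There were 3 samples at each time, hybridised on 17, 16 and 18 arrays at 0, 24 and 48 hr, and on 4 to 8 arrays per sample. Each array held 1509 gene probes, human 50-mers for transcription factors spotted 2 times, and 11 negative-control probes with no match in the genome.

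The avian hearing epithelium is a sheet of mechanosensory hair cells and the supporting cells between them, and the supporting cells are the source of new hair cells after damage. Transcription factors set these identities. ATOH1 starts hair cell differentiation, POU4F3 and GFI1 keep hair cells alive and mature, and SOX2, PROX1 and the Notch-driven HES and HEY repressors belong to supporting cells. ID proteins hold back basic helix-loop-helix factors such as ATOH1, and PAX2, EYA1 and GATA3 act earlier, in the formation of the ear.

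Levels were read as percentile ranks, the share of gene probes of the same channel that were no brighter, averaged over arrays within a dye, then over dyes, to give 1 value per sample. A rank orders probe brightness. It depends on how well a human probe pairs with the chicken transcript as well as on transcript number, so it sets no order of expression between genes. In these pooled epithelia, fewer cells of a type and less RNA per cell cannot be told apart. The median gene signal of a channel ran from 262.3 to 3685, and between 0 and 36 spots of a channel were saturated. By time, the saturated spots of a channel ran from 2 to 21 at 0 hr, 2 to 36 at 24 hr and 0 to 3 at 48 hr. In the names of the scanned images, 1 array of 0 hr replicate 3 gave Cy5 for both RNAs, and 6 arrays of 24 hr replicate 1 had another word in place of the control, so the labels of the RNA on these arrays are less certain.

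The brightest probe was PRDM13, a zinc finger factor known from interneurons of the retina and spinal cord. Its mean percentile was 99.7, with 99.1 the lowest of 9 samples. AF5Q31 (AFF4, a scaffold of the super elongation complex) followed at 99.6, with 98.5 as its lowest. Both probes were at the limit of the scanner in most early channels, PRDM13 on 16 of 17 arrays at 0 hr, 15 of 16 at 24 hr and 4 of 18 at 48 hr, and AF5Q31 on 16, 16 and 0 of them, so their order at 0 and 24 hr is not known. Elongin C (TCEB1, a subunit of elongation and ubiquitin ligase complexes) had a mean percentile of 98.7 and HNF3B (FOXA2, the forkhead factor of endoderm and floor plate) of 98.7. These 4 probes and KCNN2 were above the limit set by the negative controls in all 51 channels.

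**Figure D1:**
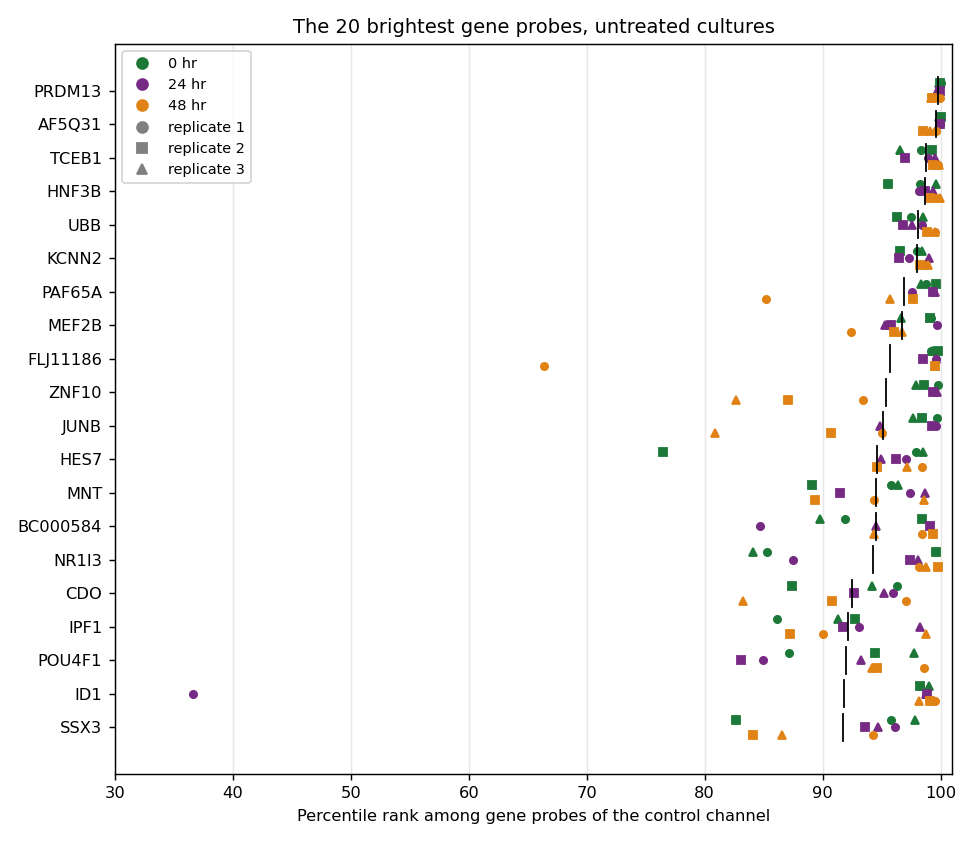
Percentile rank of the 20 brightest gene probes (horizontal axis) in each of the 9 untreated samples, coloured by time and shaped by replicate, with the mean over samples as a black bar. The upper 6 probes stay above 95 in every sample, whereas ID1 has 1 sample at 36.6 and FLJ11186 1 at 66.4.

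Not all of the bright probes were transcription factors. UBB, which encodes ubiquitin, averaged 98.1 ± 1.15 and KCNN2, the SK2 calcium-activated potassium channel that shapes efferent inhibition of hair cells, averaged 97.95 ± 0.98 (SD, n = 9 samples, as for the other ranks given this way). KCNN2 had 98.0, 96.5 and 98.4 at 0 hr, 97.3, 96.4 and 99.0 at 24 hr, and 98.7, 98.2 and 98.9 at 48 hr. Its samples at the 3 times overlapped, and no spot of it was saturated. PAF65A (TAF6L, a subunit of histone acetyltransferase complexes) averaged 96.9 ± 4.56 and MEF2B, a MADS-box activator, 96.8 ± 2.31.

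Repressors and inhibitors of the basic helix-loop-helix class stood among the brightest 20. HES7, the repressor of the segmentation clock, averaged 94.6 ± 6.93, and MNT, a repressor that pairs with MAX, 94.5 ± 3.76. ID1 was at 98.3, 98.2 and 99.0 at 0 hr, at 36.6, 98.9 and 98.7 at 24 hr and at 99.5, 99.1 and 98.1 at 48 hr. The single low value was 24 hr replicate 1, the sample that holds the 6 arrays with another word for the control, and the other 8 lay within 98.1 to 99.5. JUNB, an AP-1 subunit induced early after stimulation, read 99.7, 98.4 and 97.6 at 0 hr, 99.6, 99.2 and 94.8 at 24 hr and 95.1, 90.7 and 80.9 at 48 hr. Its 48 hr range overlapped with the 24 hr one and lay below the 0 hr one.

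The other bright probes carried names of factors known from other tissues. NR1I3, the xenobiotic receptor of liver, averaged 94.3 ± 6.61. IPF1 (PDX1, the pancreas factor) averaged 92.1 ± 4.31, POU4F1 (BRN3A, of sensory neurons) 92.0 ± 5.57 and SSX3, from a family known in human testis and tumours, 91.7 ± 5.70. SSX3 has near copies, SSX2 (79.6), SSX5 (76.1), SSX1 (74.8) and SSX4 (57.5), so its own value is uncertain. The remaining names were FLJ11186, the KRAB zinc finger gene ZNF10, BC000584 and CDO, with means of 95.7, 95.3, 94.5 and 92.5. Just outside the 20, FLJ10142 and GPA33 both stood at 91.2. With the other background corrections, the spot medians or 1 dye alone, 18 or 19 of the 20 stayed among the brightest 20 and all 20 among the brightest 50. Without the 6 arrays with another word for the control, left out after the data were seen, 17 stayed.

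The limit for calling a probe above the negative controls was the 95th percentile of their 22 spots in the same channel. A sample counted as above when at least 50% of its channels were, each dye counting alike. By this measure 45 of 1509 gene probes (2.98%) were above in all 3 samples at 0 hr, 70 (4.64%) at 24 hr and 67 (4.44%) at 48 hr, in total 122 (8.08%) at some time. In all 9 samples 14 probes were above (0.928%), and in no sample 437 (29.0%). The negative controls were not dark. Averaged over samples, their 11 probes lay between the 30.4 and the 58.2 percentile of all 1536 probes, and MT914 alone ran from 12.5 to 95.8 between samples.

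The share of gene probes above the negative controls varied widely between samples of 1 time at 24 and 48 hr and less at 0 hr. It was 9.76%, 16.6% and 13.1% at 0 hr, 23.3%, 11.4% and 38.5% at 24 hr, and 6.59%, 40.3% and 52.6% at 48 hr. The means were 13.2% ± 3.43, 24.4% ± 13.6 and 33.2% ± 23.8 (SD, n = 3 each). The 48 hr samples held both the lowest and the highest share of all 9. An exact permutation test of the F ratio over the 1680 arrangements of the 9 samples gave p = 0.407. The counts of probes above in a whole time depended on single samples. Since a probe must be above in all samples, leaving 1 out can only keep or raise such a count. Without 48 hr replicate 1, 483 probes in place of 67 were above the negative controls in both samples left at 48 hr. The 24 hr count of 70 became 126 without replicate 1 and 178 without replicate 2, and the 0 hr count of 45 became 91 without replicate 1 and 80 without replicate 3.

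**Figure D2:**
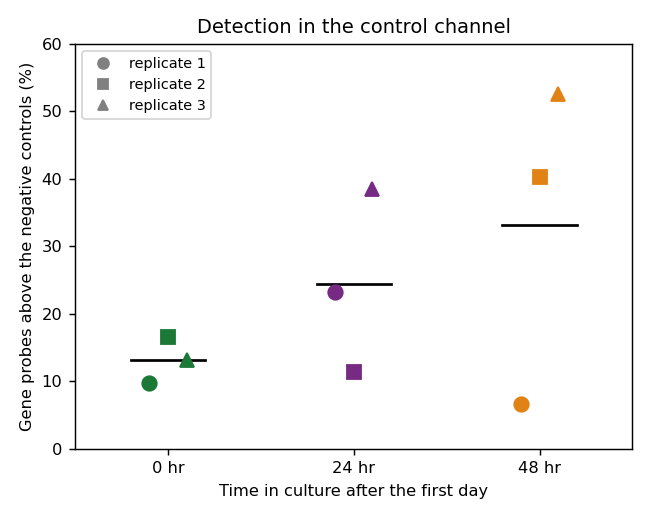
Percent of gene probes above the negative-control limit (vertical axis) in each untreated sample at 0, 24 and 48 hr after the first day of culture. Points are samples shaped by replicate number, and lines are means. The 48 hr samples span 6.59% to 52.6%.

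Of 11 supporting cell, 21 otic and 5 hair cell probes, 1 (ID1), 1 (TBX2) and 0 were in the brightest 50. Over all gene probes 50 of 1509 were, so counts of 0 or 1 in lists of this size are near that share. Of 7 hair cell names, 5 had a probe. Their median percentile was 54.1, against 49.4 over all gene probes, and 0 of 5 were above the negative controls in all 3 samples of any time, where 8.08% of all gene probes were. ATOH1 averaged 54.1 ± 11.98 and ranged from 33.7 to 73.5. GFI1 averaged 51.5 ± 20.3, and BARHL1, a homeobox gene needed for hair cell survival in mouse, 47.9 ± 21.6. With 5 probes, a count of 0 is near that share and is no result about hair cell factors.

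POU4F3 read 15.1, 75.0 and 59.6 at 0 hr, 29.9, 6.58 and 70.6 at 24 hr, and 83.01, 85.0 and 88.1 at 48 hr. Its 48 hr samples lay above all 6 earlier ones. On the log2 scale the 48 hr mean was 1.41 (SE 0.45) above the 24 hr mean, with an adjusted p of 0.892 in limma over all probes tested. RFX3, which works in ciliated cells and in hair cell maintenance, ran the other way, with 92.4, 86.4 and 63.9 at 0 hr, 96.2, 81.2 and 34.6 at 24 hr, and 39.2, 24.9 and 25.2 at 48 hr. Its 48 hr samples lay below those of 0 hr and overlapped with those of 24 hr. Its 48 hr mean was -1.40 (SE 0.58) from the 0 hr mean on the log2 scale, with an adjusted p of 0.853. Neither difference passed.

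Of 12 supporting cell names, 11 had a probe, with a median percentile of 56.5 and a range of 21.1 to 91.8. After ID1 the highest were the Notch targets HEY2 at 77.6 ± 14.7 and HEYL at 77.5 ± 16.8, and the lowest were SOX9 at 28.6, HRY (HES1) at 27.1 and ID2 at 21.1. Above the negative controls in all 3 samples of a time were 1, 0 and 2 of the 11 at 0, 24 and 48 hr, where 2.98%, 4.64% and 4.44% of all gene probes were. In no sample 3 of the 11 were above, near the 29.0% of all gene probes. SOX2 was at 97.8, 40.2 and 51.0 at 0 hr, at 98.3, 98.5 and 62.6 at 24 hr and at 39.0, 36.6 and 54.9 at 48 hr. High and low values of SOX2 occurred within 0 hr and within 24 hr, and its 48 hr samples were below all 24 hr samples. The 48 hr minus 24 hr difference was -2.34 (SE 0.91) on the log2 scale, adjusted p = 0.892 in limma. PROX1 averaged 56.5 ± 22.3, with 59.5, 85.7 and 71.5 at 0 hr, 41.8, 34.0 and 40.8 at 24 hr and 65.7, 85.1 and 24.3 at 48 hr.

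The otic list, genes of ear formation, had probes found by name for 21 of 24 and a median percentile of 42.7. SALL4, which the study lists under an older locus name, was not matched and is not counted. Its brightest members were TBX2 at 87.9 ± 11.98, GBX2 at 84.7 ± 19.4 and SIX4 at 80.6 ± 22.2, and its dimmest DLX5 at 24.9, PAX2 at 20.1 and EYA4 at 15.5. TBX2 had 66.2, 92.7 and 80.1 at 0 hr, 81.3, 77.7 and 99.6 at 24 hr, and 97.1, 97.2 and 99.7 at 48 hr. Its 48 hr samples were all above those of 0 hr but not all above those of 24 hr, and the 48 hr minus 0 hr difference of 2.22 (SE 0.92, log2) did not pass, with an adjusted p of 0.853. EYA1 averaged 25.9 ± 9.83, and both PAX2 and EYA1 stayed below 45 in every sample. GATA3 varied within each time, with 56.7, 33.1 and 82.9 at 0 hr, 87.5, 28.6 and 43.8 at 24 hr and 76.3, 23.6 and 61.0 at 48 hr, and its means at the 3 times were 57.6, 53.3 and 53.6.

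Over the 9 samples the probes whose ranks followed POU4F3 most closely were LRP5, a WNT co-receptor (Pearson r = 0.98), RXRB, a retinoid receptor (0.97), and GTF3C1, a subunit of the RNA polymerase III factor TFIIIC (0.96). For GATA3 they were CRSP7, a Mediator subunit (0.93), the glycolytic enzyme ENO1 (0.90) and NEUROG1, the factor of otic neurons (0.90). These are the 3 highest of all gene probes for each, and no test was made. Some of the samples have the same replicate number and near days of quantification, as described below.

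**Figure D3:**
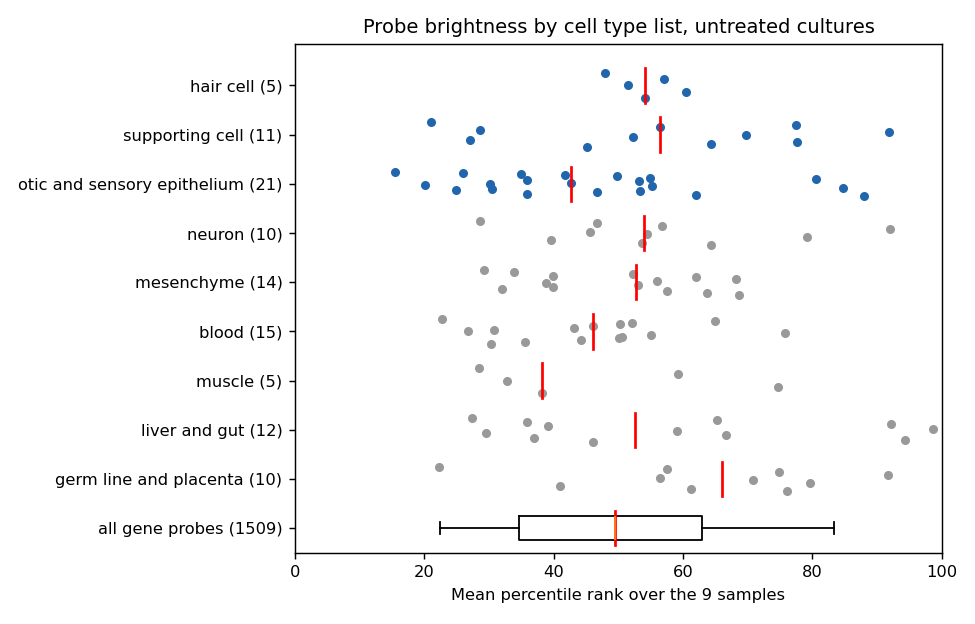
Mean percentile rank over the 9 untreated samples (horizontal axis) of each probe on 9 cell type lists, with the number of probes in brackets and the list median in red. Lists of the epithelium are blue and other cell types grey, and the box gives the quartiles of all gene probes with whiskers at the 5th and 95th percentiles. The list medians lie between 38.2 (muscle) and 66.1 (germ line and placenta), with 49.4 for all gene probes.

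Lists of other cell types had medians on both sides of those of the epithelium. Medians were 54.0 for 10 neuron probes, 52.7 for 14 of mesenchyme, 46.1 for 15 of blood, 38.2 for 5 of muscle, 52.6 for 12 of liver and gut, and 66.1 for 10 of germ line and placenta, the last led by SSX3, SSX2 and SSX5. The brightest were POU4F1, ARIX (PHOX2A) and NEUROG1 of the neuron list, FOXF2, PMX1 and FOXC2 of mesenchyme, and EBF, POU2AF1 and GFI1B of blood, at 92.0, 79.1 and 64.2, at 68.6, 68.1 and 63.6, and at 75.7, 64.9 and 55.0. MYF5 led the muscle list at 74.6. The 3 lowest were LMO2, NFE2 and RUNX1 of blood, MYOG, MYOD1 and CSRP3 of the 5 muscle probes, and HNF4A, CDX1 and TCF2 of liver and gut. These lists ran from 22.7 to 75.7, from 28.4 to 74.6 and from 27.4 to 98.7, so their low members do not stand for the whole list. In all 3 samples of a time, mesenchyme, blood and muscle probes (14, 15 and 5 of them) were above the negative controls in 0 cases. Over all gene probes the shares were 2.98%, 4.64% and 4.44% at 0, 24 and 48 hr, so counts of 0 or 1 in lists of this size are near them. Neuron probes had 0, 1 and 1 of 10 at 0, 24 and 48 hr, germ line and placenta 1, 2 and 1 of 10, and liver and gut 1, 3 and 2 of 12, a list that includes HNF3B, NR1I3 and IPF1. The part of other cell types in the epithelium was not tested.

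By function, the inhibitors of the ID and HES/HEY families had the highest median of the 12 groups, 75.7 over 10 probes, with HES7 at 94.6, ID1 at 91.8 and HES2 at 90.3 and with ID2 at 21.1 at the other end. Forkhead probes followed at 65.2 over 23, led by HNF3B, FOXB1 (86.1) and FOXL2 (79.4). SMAD mediators of TGF-beta and BMP signals, named MADH on this array, had a median of 55.4, with MADH2 at 79.3, MADH4 at 66.5 and MADH3 at 62.1. AP-1 and CREB/ATF factors had a median of 53.4 over 27, with JUNB, XBP1 (86.4) and MAFG (76.3) on top. For 48 chromatin genes the median was 53.1 and among the highest were the Polycomb subunit RING1 at 86.8 and the SWI/SNF subunit SMARCC1 at 77.6.

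The dimmest large group was the 172 probes with zinc finger names, with a median of 33.9. Of these 97 (56.4%) were above the negative controls in no sample, where the share over all gene probes was 29.0%, although ZNF10, ZNF38 and ZNF6 reached 95.3, 83.2 and 80.2. E2F and pocket proteins, which gate entry into S phase, had a median of 41.1 over 11, and their highest, E2F2, was at 60.8. Medians near that of all probes were found for 44 probes of the basal machinery (43.8), 45 nuclear receptors (45.0), 26 STAT, IRF and NF-kappaB factors (45.2), 12 SOX probes (46.5) and 38 HOX probes (51.4). Among nuclear receptors NR1I3 and ESR1 (88.3) were the brightest. Bright members of the other groups were GTF2H2 (84.5), GTF2A2 (84.0) and TAF2C1 (78.3) of the machinery, NFKB2 (76.3) and IRF2 (74.6), SOX14 (67.6), SOX2 (64.3) and SOX10 (63.2), and HOXA3 (77.6), HOXB6 (74.9) and HOXA5 (72.9).

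The order of the probes was compared between the 3 times. Of the 50 brightest at each time, 29 were shared by 0 and 24 hr, 19 by 24 and 48 hr, and 20 by 0 and 48 hr. The 12 shared by all 3 were AF5Q31, BC000584, HES7, HNF3B, KCNN2, MEF2B, MNT, PAF65A, POU4F1, PRDM13, TCEB1 and UBB. Among the 100 brightest, the SD of percentile rank over the 9 samples was lowest for PRDM13, AF5Q31 and KCNN2, at 0.31, 0.50 and 0.98. For PRDM13 and AF5Q31, saturated in 35 and 32 of 51 channels and close to the top of the scale, this is no measure of stability. Their log2 signal over the median negative-control spot had an SD of 1.02 and 1.18, and AF5Q31 differed by -1.25 (SE 0.31) between 48 and 0 hr, with an adjusted p of 0.436 in limma. ATP7B, CIAO1, FOXB1, LOC57209 and LDOC1 varied most, with an SD of 29.5, 28.5, 26.6, 26.3 and 25.9, where the median SD was 17.1 over all gene probes. FOXB1, a forkhead factor of the embryonic brain, stood at 18.6, 97.2 and 96.9 at 0 hr, 73.8, 92.4 and 99.0 at 24 hr and 98.0, 99.9 and 99.4 at 48 hr. The FOXB1 difference between 48 and 0 hr was 2.52 (SE 0.95, log2), with an adjusted p of 0.853.

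Differences between times were tested with limma on quantile-normalised log2 signals over 1282 probes. Between 24 and 0 hr 0 probes passed an adjusted p of 0.05, with 33 (2.57%) at an unadjusted p under 0.05. Between 48 and 24 hr 1 probe passed (0.078%, with 66 or 5.15% unadjusted), and between 48 and 0 hr 2 (0.156%, with 68 or 5.3% unadjusted). An F test of any difference among the times passed 1 probe, ZNF10, with 46 (3.59%) unadjusted. All of these passing differences were falls. They were ZNF10 in both contrasts and KIAA0540 in the last.

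ZNF10 encodes a KRAB zinc finger repressor in human. Its log2 signal was 15.2, 14.1 and 14.4 at 0 hr, 14.6, 14.5 and 15.1 at 24 hr, and 12.5, 11.7 and 11.4 at 48 hr. All 48 hr samples lay below all 6 earlier ones. The 48 hr mean differed from the 24 hr mean by -2.86 (SE 0.39, limma adjusted p = 0.0357) and from the 0 hr mean by -2.73 (SE 0.39, limma adjusted p = 0.046) on the log2 scale. At least 1 spot of ZNF10 was saturated on 4 of 17 arrays at 0 hr, 7 of 16 at 24 hr and 0 of 18 at 48 hr, and the probe was still above the negative controls in all 3 samples at 48 hr. Its percentile means were 98.8, 99.5 and 87.7 at 0, 24 and 48 hr, and on the percentile scale neither contrast passed. In the neomycin channel of the same arrays the means were 93.5, 88.1 and 83.5. Leaving out 1 sample kept the sign every time but took the adjusted p of the 48 hr minus 24 hr difference to between 0.0255 and 0.278, and above 0.05 in 7 of 9 cases, all but 0 hr replicate 1 and 48 hr replicate 1. For the 48 hr minus 0 hr difference of ZNF10 it lay between 0.0363 and 0.204, above 0.05 without any sample other than 24 hr replicate 3 or 48 hr replicate 1. Without the 6 arrays with another word for the control the adjusted p of ZNF10 was 0.0331 between 48 and 24 hr and 0.0592 between 48 and 0 hr, and without the array naming Cy5 for both RNAs 0.0532 and 0.108.

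KIAA0540 had 14.1, 12.7 and 12.7 at 0 hr, 10.7, 10.7 and 11.3 at 24 hr, and 9.65, 10.7 and 10.4 at 48 hr. Its 0 hr samples lay above all later ones. The 48 hr minus 0 hr difference was -2.94 (SE 0.45, limma adjusted p = 0.046). That between 24 and 0 hr was -2.26 (SE 0.45), with an adjusted p of 0.718. By percentile, KIAA0540 averaged 93.6, 61.1 and 36.5 at the 3 times. It exceeded the negative-control limit in 16 of 17 channels at 0 hr, 6 of 16 at 24 hr and 4 of 18 at 48 hr. Its neomycin channel gave 86.2, 51.5 and 41.3. Leaving out 1 sample put the 48 hr minus 0 hr difference of KIAA0540 between -3.22 and -2.42 and its adjusted p between 0.045 and 0.294, above 0.05 without any sample other than 24 hr replicate 3. It was 0.319 without those 6 arrays and 0.108 without the array naming Cy5 for both RNAs. With the replicate number as a block, this difference of KIAA0540 did not pass either.

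**Figure D4:**
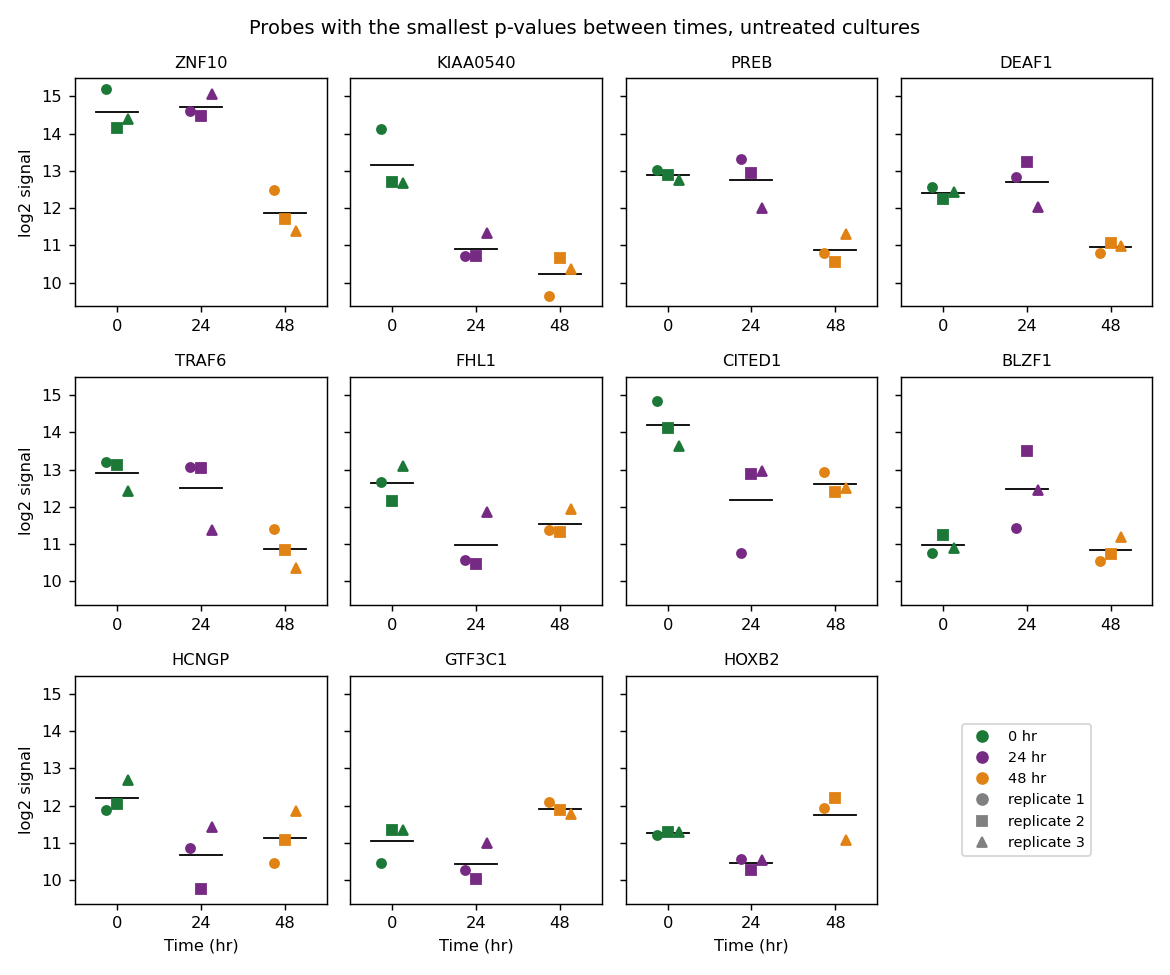
Quantile-normalised log2 signal (vertical axis) at 0, 24 and 48 hr for the 11 probes with the smallest p-values in any contrast, in untreated samples shaped by replicate number, with the mean of each time as a line. ZNF10 and KIAA0540 were the only probes to pass. The means of ZNF10, PREB, DEAF1 and TRAF6 are lowest at 48 hr, and those of GTF3C1 and HOXB2 highest.

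The next probes by p did not pass in these fits. PREB, a protein of secretory traffic that also binds the prolactin promoter, differed by -1.996 (SE 0.38, adjusted p = 0.155 in limma) between 48 and 0 hr and by -1.88 (SE 0.38) between 48 and 24 hr. The DNA-binding regulator DEAF1 differed by -1.46 (SE 0.34) and -1.74 (SE 0.34, adjusted p = 0.245), and TRAF6, an adaptor of Toll-like and interleukin receptors, by -2.05 (SE 0.50) between 48 and 0 hr. Differences of 1.49 (SE 0.36) and 1.28 (SE 0.33) between 48 and 24 hr were found for GTF3C1 and HOXB2. Between 24 and 0 hr the leading values after KIAA0540 were -1.66 (SE 0.43) for FHL1, -2.01 (SE 0.57) for the coactivator CITED1, 1.497 (SE 0.47) for BLZF1 and -1.53 (SE 0.49) for HCNGP. For CITED1 the 24 hr percentiles were 38.5, 96.5 and 96.3. The low value was replicate 1, the sample that holds the 6 arrays with another word for the control. The samples of the 2 times did not overlap for these 11 probes in the contrasts named. Over all probes tested that was so for 9.2% between 24 and 0 hr, 8.81% between 48 and 24 hr and 12.2% between 48 and 0 hr. The 11 were chosen by their small p-values from the same values, so their lack of overlap adds no support.

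Among the 20 brightest, 2 probes were higher and 5 lower at 48 than at 0 hr at an unadjusted p under 0.05, where 2.03% and 3.28% of all probes were, and of the 7 only ZNF10 passed after adjustment. The 20 were chosen by their ranks over these same samples, so these counts are no test of bright probes. The lower ones included JUNB, with a difference of -2.13 (SE 0.64), and PAF65A with -1.62 (SE 0.48). The higher ones were TCEB1 with 1.24 (SE 0.47) and UBB with 0.98 (SE 0.42). All 5 lower probes had saturated spots at 0 hr, on 16 (AF5Q31), 4 (ZNF10), 3 (PAF65A), 2 (MEF2B) and 1 (JUNB) of 17 arrays. At 48 hr they had them on 0 of 18, and TCEB1 and UBB had 0 at both times. The part of saturation in these differences was not tested. In each cell type list and function list at most 1 probe passed in any contrast, ZNF10 among the zinc finger names. List medians of the log2 difference lay between -0.51 (the 5 hair cell probes, 48 minus 24 hr) and 0.65, with 0.01, 0.00 and 0.02 over all probes in the 3 contrasts. The value of 0.65 was that of the ID and HES/HEY inhibitors between 48 and 24 hr, where 1 of 8 tested was higher at an unadjusted p under 0.05. Of 32 HOX probes tested between 48 and 24 hr, 4 were higher, HOXB2 among them, and 0 lower at that unadjusted p, where 2.57% of all probes were higher and 2.57% lower. Between 48 and 0 hr 0 HOX probes were higher and 0 lower, and between 24 and 0 hr 0 were higher and 1 lower. After adjustment 0 HOX probes passed in each contrast, and the list was not tested as a set.

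Samples that shared a time were about as alike as samples of different times. The median Spearman correlation of percentile ranks across probes, which are not independent, was 0.43 for the 9 pairs within a time (range 0.30 to 0.67) and 0.42 for the 27 pairs between times (0.22 to 0.92). Between single control channels of 1 sample the median was 0.74 (0.15 to 0.96). It was 0.41 within 0 hr replicate 3 and 0.52 within 24 hr replicate 1. Of the pairs between times, the 9 with the same replicate number had a median of 0.50 and the 18 with different numbers 0.39. The 2 highest values joined samples of different times with the same replicate number. They were 0.92 for 48 and 24 hr replicate 3, whose nearest arrays by date were quantified 1 day apart, and 0.88 for 48 and 0 hr replicate 2. In the latter pair some arrays of both were quantified on 1 day. Single arrays of 48 and 24 hr replicate 3 had a median correlation of 0.84 with each other, where the 24 hr replicate 3 arrays had 0.84 among themselves and the 48 hr replicate 3 arrays 0.92. Within these closest pairs ZNF10 differed by -3.67 and -2.45 on the log2 scale. Both pairs share a replicate number, and their nearest arrays lie at most 1 day apart in quantification. The part of replicate number or day in the differences between times was not tested beyond the fits with these terms given under the processing alternatives.

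**Figure D5:**
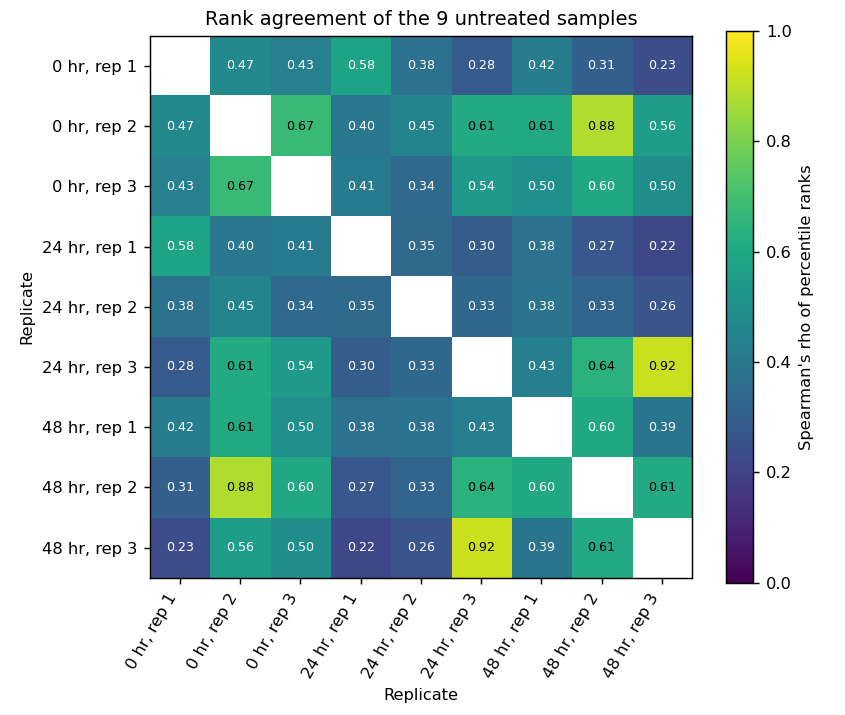
Spearman correlation of percentile ranks over 1509 gene probes between each pair of the 9 untreated samples, printed in each cell, on a colour scale from 0 to 1. The highest values are 0.92 for 48 and 24 hr replicate 3 and 0.88 for 48 and 0 hr replicate 2, and pairs within a time run from 0.30 to 0.67.

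The 2 RNAs of an array gave nearly the same order. Neomycin and control channels of 1 array had a median Spearman correlation of 0.86 over 51 arrays (0.63 to 0.99), and 42 of the 50 brightest probes of the mean over all samples were shared. Both channels share the slide and its probes. Among the probes within the 100 brightest of either dye, the largest Cy3 minus Cy5 differences of mean percentile were -10.8 for ZNF76, -8.19 for TSA1902, -7.73 for SNAPC5, -7.57 for HOXA3 and 7.06 for SAFB, while ZNF76 had an SD of 26.6 between samples.

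Probes with built-in mismatches were included for TAF3B2, a subunit of an RNA polymerase III factor. Its matched probe averaged 0.01 ± 0.43 above the median negative-control spot on the log2 scale (SD, n = 9). It was brighter than its 4 mismatch versions in 5, 6, 8 and 5 of the 9 samples. The mean differences between the matched and the mismatched probe lay between 0.01 and 0.27, all within 1 SD over samples. TAF3B2 did not stand clear of the negative controls, so these probes do not show how far a mismatch lowers the signal of a bright probe.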

How the data were processed

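The intensity values were deposited as scanner output of ImaGene 4.1, with the mean and median brightness of each spot and its local background, not normalized by the authors. A deposited table of log2 ratios was not used. The dye of each RNA followed the title suffix, and the image names gave the same dyes on all arrays but the one described above. On the 6 arrays with another word in place of the control, the image name does not name the control RNA. For each control channel, log2 of the spot mean was averaged over the 2 spots of a probe and ranked among 1509 gene probes. The 8 mismatch versions of 2 control probes were left out of the negative controls, which left 11 of them. Arrays were averaged within dye and then over dyes, giving 9 samples. The number of samples limits the precision. A spot was called saturated when its median reached 65535.

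Differences between times were fitted with limma 3.58.1 in R 4.3.3 after quantile normalization over the 51 channels. The dimmest 15% of probes were left out, and p-values were adjusted by Benjamini-Hochberg over the 1282 left. The fit was tested on simulated data. Ranks, counts and figures were made with Python 3.11.15. The study hybridised neighbouring control times directly against each other and also scored detection from intensities. Such arrays of 2 control times are not analysed here, and the contrasts between times run across arrays, by a design chosen for this purpose. The labels give each sample as a biological replicate, which the files cannot prove, and p-values measure the spread between these samples. The control arrays of 24 and 48 hr replicate 3 were as alike as arrays of 1 sample. They were kept apart as labelled. Alternatives covered background, dye, filter, normalization, weighting, blocks and left-out samples.

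Probes carry the names of the array's design. Among 1507 names, 754 were identical to a chicken symbol of the RefSeq annotation of GRCg7b, and with synonyms 817 were matched. No coordinates were used. Probe sequences are not used here. Genes were named by rule: the 20 brightest and next 2, the 5 smallest p-values per contrast, 8 markers, the extremes of each list, the most and least variable of the brightest 100, the largest dye differences and the nearest patterns to POU4F3 and GATA3. Members, lists and rules were chosen with earlier results of these data known. Some probes covered by these rules are not reported here.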

Additional observations from a re-analysis of the deposited data

Results flagged for a closer look

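Within the arrays of 1 sample, 3 control channels stood far from the others by Dixon's criterion. There were 27 looks at the arrays of the 9 samples, by more than 1 measure, so the looks are not independent. Chance gives about 1 in 20 looks (1.35 here). In 0 hr replicate 2, the second array with control RNA in Cy5 had a mean Spearman correlation of 0.65 with the other 5, and the next lowest had 0.82. The criterion looks within a sample, and lower correlations in other samples were not flagged. The lowest was 0.29, for the first array of 0 hr replicate 3 with control RNA in Cy3. In 48 hr replicate 1, the fourth array with control RNA in Cy5 had 19.5% of gene probes above the negative controls, and the next of the 8 had 9.61%. In 48 hr replicate 3, the first array with control RNA in Cy5 had 43.6%, and the next of the 4 had 54.7%.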

How the results depend on the processing

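Differences of the 11 probes named for a contrast kept their sign under every alternative run. The counts of passing probes for 24 minus 0 hr, 48 minus 24 hr, 48 minus 0 hr and any time were 0, 1, 2 and 1. They were 0 in all 4 with normexp, with Cy3 only, with percentile ranks, with median centring and, added after seeing the data, without the array naming Cy5 for both RNAs. Cy5 only and, also added, leaving out the 6 arrays with another control label gave 0 for 48 minus 0 hr, and weighting all arrays alike gave 0 for any time. With the replicate number as a block they were 0, 1, 1 and 0, with KIAA0540 at an adjusted p of 0.101 between 48 and 0 hr. Deviations of same-numbered samples correlated at 0.09 to 0.54, and 7 of 9 samples were closest to one of their own number. This is a hint of pairing that the labels do not state. Nearest arrays of same-numbered samples were quantified 0 to 24 days apart, and those of differently numbered samples 56 to 289 days apart. Replicate number thus went with the date of quantification, and the 2 cannot be told apart. Since 1 of the 9 correlations was under 0.1, the block was not made the main design. Single arrays with the sample as a random term gave 0, 17, 6 and 15, and with the quantification day as a random term 29, 77, 148 and 186, a fit that counts arrays of 1 sample as separate. Leaving out 1 sample gave 0 to 2, 0 to 3 and 0 to 1 in the last 3 contrasts and 0 in the first. ZNF10 passed between 48 and 24 hr without 0 hr replicate 1 or 48 hr replicate 1 only. The count of 14 probes above the negative controls in all samples became 247 with their median as the limit, 6 when 80% of channels were required, and 14 to 25 when leaving out 1 sample, 25 being without 48 hr replicate 1. Leaving out a sample can only keep or raise this count. The 12 probes shared among the brightest 50 became 6 of 25 and 35 of 100, and 10 to 14 when leaving out 1 sample. The exact p of the share above ran from 0.05 (without 48 hr replicate 1) to 0.993, and agreement within a time from 0.38 to 0.47. The ranks of HNF3B with normexp or background subtraction were 97.2. Brightness near the negative controls limits what most of these probes can show.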

Other observations

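The 2 pairs of samples with the closest ranks, 48 and 0 hr replicate 2 and 48 and 24 hr replicate 3, share no sample. In the first, 16 probes were over 1 log2 unit higher and 48 lower at 48 hr, and in the second 16 were higher and 26 lower. Of these, 14 passed that size in both pairs with the same sign, 12 lower and 2 higher. This list was drawn after the values were seen and has no test. Among those lower in both were ZNF10, the protein repair enzyme PCMT1 (-1.77 and -2.86), KIAA0173 (-2.38 and -2.86), the copper transporter ATP7B (-1.58 and -2.36), TNRC5, PAF65A, FXC1, JUNB (-1.66 and -1.22), DEAF1, TRAF6 and AF5Q31. UBB (1.09 and 1.46) and LOC51058 (1.62 and 1.10) were higher in both, and LMO1 differed by 1.27 in the first and by -1.30 in the second.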
